A study of Mus musculus with 28 samples.

Results

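Fibroblast growth factors (FGF) and hepatocyte growth factor (HGF) are secreted signals that act on skin keratinocytes, fibroblasts and hair follicles. The transcripts followed here were the ligands Fgf7, Fgf10, Fgf22, Fgf2, Fgf5, Fgf18 and Hgf and the receptors Fgfr1, Fgfr2 and Met, 10 genes chosen by name out of the 29068 gene symbols in the count table. All 10 were in the table and passed the filter on low counts, as 18107 genes in all did. They were measured by RNA sequencing of skin from mice with an intact Mlkl gene (MLKL+/+, C57BL/6J), 8 weeks old, at Day0, Day3, Day5, Day7, Day10, Day12 and Day14 of natural wound healing, with 4 libraries per day and 28 in all. Every mouse carried the same genotype. The methods of the study describe a punch wound of 6 mm through the back skin to the fascia and the collection of the whole wound site with scab and epithelial margin. The labels name Day0 as the control, and whether the Day0 skin had been wounded is not given in the sources used here. The methods of the study count the day of injury as day 1 and give no day 0, so Day0 is used here as the label has it, and 4 libraries per day were analysed where the series text speaks of 5 repeats. Nothing in the labels says that the libraries of a day came from separate mice, so p-values measure the spread between libraries only.

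FGF7 and FGF10, known as keratinocyte growth factors, are made by dermal cells and bind the epithelial (IIIb) form of FGFR2 on keratinocytes, which divide and migrate in response. FGF22 belongs to the same subfamily, FGF2 is a broad mitogen of fibroblasts and endothelium that binds FGFR1, FGF5 is known as the signal that ends hair growth, and FGF18 is made in hair follicles and other tissues. HGF is made by mesenchymal cells as an inactive precursor, is cut by serine proteases, and signals through the receptor tyrosine kinase MET in epithelium. In wound healing these paths are known for re-epithelialization, the closing of the surface by keratinocytes from the wound edge and the hair follicles.

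Library totals ranged from 36706513 to 40655764 counts (median 39499595), so depth was even. The Day0 libraries varied the most, with a biological coefficient of variation of 23.2% against 5.64% to 10.6% on the wound days. The edgeR tests below pool the spread of each gene over all 28 libraries. Their SE and p-values against Day0 can therefore understate the spread of the Day0 libraries. Libraries 2 and 3 of Day0 resembled each other and differed from libraries 1 and 4. The summed CPM (counts scaled to the library total) of 7 fibroblast markers was 55989 and 53751 in libraries 2 and 3 and 25016 and 14296 in libraries 1 and 4, and that of 6 skeletal muscle markers was 16701 and 16996 against 28157 and 29656. Basal keratinocyte markers were detected in every library (6 genes, summed CPM 2879 to 6886), as labelled for skin, and skeletal muscle markers were detected in every library too. Neutrophil markers (6 genes) summed to 16.4 to 42.7 CPM on Day0 and to 4359 to 5503 CPM on Day3.

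The promoters of 6 of the genes are shown, chosen by their course. Fgf7 and Hgf were highest on Day3. Fgf5, Fgf10 and Fgf22 were lowest on Day3 and highest on Day12 or Day14, and Met had the smallest ratio of highest to lowest mean. Windows of 300 bases, from 250 before to 50 after the annotated start, were taken from RefSeq (GRCm38.p6, the release of the mm10 build that the processing notes name) and were listed for 9 of the 10 genes, with 2 windows for Hgf. Capitals mark matches, on either strand, to 6 motifs. The binding site of AP-1 was searched as TGANTCA, that of STAT proteins as TTCNNNGAA and that of C/EBP proteins as TTGCNNAA. The site of ETS factors was searched as CCGGAAG, the TATA box that places the start of transcription as TATAAA, and the GC box bound by Sp1 family factors as GGGCGG. Each sequence is written 5′ to 3′ on the + strand.
Fgf7, chr2:126034408-126034707: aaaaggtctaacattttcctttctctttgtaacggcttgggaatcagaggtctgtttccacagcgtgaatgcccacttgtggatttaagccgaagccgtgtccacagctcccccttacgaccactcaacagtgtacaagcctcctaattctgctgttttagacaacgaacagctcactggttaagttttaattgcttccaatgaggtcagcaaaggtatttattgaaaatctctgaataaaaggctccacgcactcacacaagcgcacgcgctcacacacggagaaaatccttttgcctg
Hgf, chr5:16553651-16553950: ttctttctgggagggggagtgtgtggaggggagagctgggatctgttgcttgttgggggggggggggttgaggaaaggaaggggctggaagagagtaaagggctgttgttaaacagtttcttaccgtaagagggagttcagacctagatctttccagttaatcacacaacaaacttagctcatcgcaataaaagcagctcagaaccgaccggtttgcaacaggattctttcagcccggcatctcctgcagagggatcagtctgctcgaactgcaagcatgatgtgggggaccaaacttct
Fgf5, chr5:98253934-98254233: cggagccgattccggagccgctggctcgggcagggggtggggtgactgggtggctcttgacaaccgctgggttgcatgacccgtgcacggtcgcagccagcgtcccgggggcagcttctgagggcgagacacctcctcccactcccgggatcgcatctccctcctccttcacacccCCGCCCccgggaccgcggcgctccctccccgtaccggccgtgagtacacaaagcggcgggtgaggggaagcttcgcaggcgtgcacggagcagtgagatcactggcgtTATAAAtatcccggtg
Fgf10, chr13:118714449-118714748: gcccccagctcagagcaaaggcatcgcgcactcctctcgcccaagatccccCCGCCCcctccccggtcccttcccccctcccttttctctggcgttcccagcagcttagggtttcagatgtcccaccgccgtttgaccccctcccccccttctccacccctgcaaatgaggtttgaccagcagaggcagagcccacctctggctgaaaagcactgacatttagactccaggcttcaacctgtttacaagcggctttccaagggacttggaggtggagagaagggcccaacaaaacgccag
Fgf22, chr10:79754859-79755158: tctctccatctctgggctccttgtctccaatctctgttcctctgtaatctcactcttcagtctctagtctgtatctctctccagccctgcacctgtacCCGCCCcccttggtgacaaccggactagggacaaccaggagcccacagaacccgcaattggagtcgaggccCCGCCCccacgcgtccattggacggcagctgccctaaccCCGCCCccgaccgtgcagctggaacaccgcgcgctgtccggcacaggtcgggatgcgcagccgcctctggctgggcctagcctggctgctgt
Met, chr6:17463707-17464006: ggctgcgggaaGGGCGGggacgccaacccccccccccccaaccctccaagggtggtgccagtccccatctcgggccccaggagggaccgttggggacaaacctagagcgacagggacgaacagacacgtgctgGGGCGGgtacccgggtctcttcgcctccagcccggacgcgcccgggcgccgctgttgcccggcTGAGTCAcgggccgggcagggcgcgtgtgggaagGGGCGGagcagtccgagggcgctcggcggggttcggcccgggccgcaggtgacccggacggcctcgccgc
The windows of Fgf7 and Hgf held none of these motifs, and the window of Hgf that starts at chr5:16553245 held none either. The Fgf22 and Met windows each held 3 GC boxes, a motif found in 35.7% of the 32851 windows of this length in the table, and the Fgf5 and Fgf10 windows held 1 each. Met also held an AP-1 match 54 bases before the start (7.81% of all windows have one), and Fgf5 a TATA box that begins 35 bases past the start (13.6% of all windows). Base composition differed between them as well, with 45.7% G and C in Fgf7, 51.3% in Hgf, 60.7% in Fgf10, 63.7% in Fgf22, 68.3% in Fgf5 and 75.7% in Met, where the median of all windows was 52.7%. The matches describe these letters only and were not tested for any function.

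The genes themselves lie, in the same assembly, on chromosome 2 at 126034658 to 126091185 (Fgf7, + strand), chromosome 13 at 118714699 to 118792573 (Fgf10, +), chromosome 10 at 79755051 to 79757795 (Fgf22, +) and chromosome 3 at 37348477 to 37410106 (Fgf2, +). Fgf5 is on chromosome 5 at 98254184 to 98277033 (+), Fgf18 on chromosome 11 at 33116970 to 33147400 (− strand) and Hgf on chromosome 5 at 16553495 to 16619439 (+). The receptors are on chromosome 8 at 25518759 to 25575718 (Fgfr1, +), chromosome 7 at 130162451 to 130266808 (Fgfr2, −) and chromosome 6 at 17463349 to 17573980 (Met, +). Counts cover whole genes, so exons, introns and receptor isoforms cannot be separated. The sources used here do not give the strand setting of the counting, so reads where exons overlap those of a gene on the opposite strand cannot be told apart. Such overlap covers 82 of 2247 exonic bases of Fgf22 (Rnf126), 640 of 6782 of Fgf2 (Nudt6), 69 of 4236 of Fgf10 and 164 of 9662 of Fgfr1 in GENCODE vM21.

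Against Day0, all 10 genes passed the test on Day3 (edgeR quasi-likelihood test, Benjamini-Hochberg adjusted p under 0.05 over 18107 genes), 3 higher and 7 lower. Hgf rose most, Fgf5 had the most negative fitted value, from 0 to 6 counts per library, and Fgfr2 fell to about 0.252 of its Day0 level. Calls were common in the whole table, where 31.8% of genes were called higher and 34.8% lower on Day3. The counts of the 10 genes called were 8 on Day5 (2 higher and 6 lower, beside 29.0% and 30.6% of all genes) and 6 on Day7 (3 and 3, beside 25.6% and 24.8%). They were 9 on Day10 (3 and 6, beside 23.5% and 26.9%), 6 on Day12 (4 and 2, beside 21.7% and 25.6%) and 8 on Day14 (3 and 5, beside 28.2% and 34.5%). At the limits of the study, a log2 fold change over 1.5 with an unadjusted p under 0.05, the counts were 5, 2, 1, 1, 2 and 2 from Day3 to Day14, beside 18.9%, 13.9%, 9.40%, 9.47%, 7.39% and 14.0% of all genes. All 6 comparisons share the 4 Day0 libraries and are not independent of one another. Among the wound days alone, without use of Day0, each of the 10 genes differed in a joint test, as 85.1% of all genes did. In these tissue samples, fewer cells of a type and less RNA per cell cannot be told apart.

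**Figure D1:**
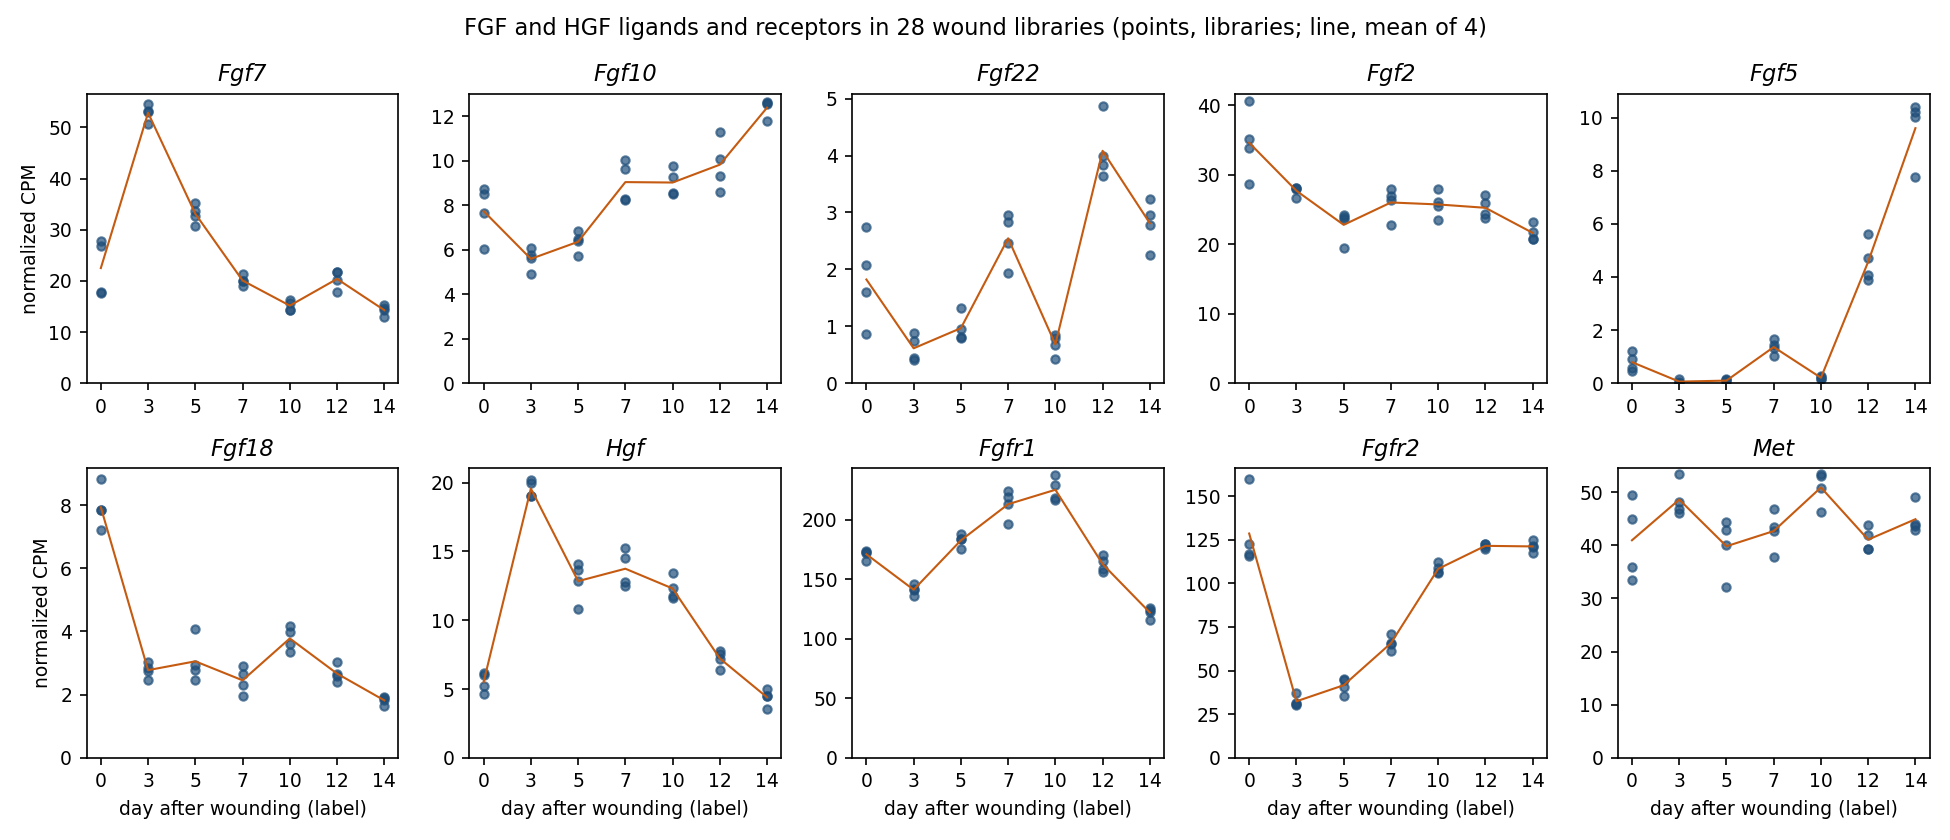
Normalized CPM of each gene (vertical axis, from 0) by labelled day (horizontal axis), with a point for each of the 28 libraries and a line through the means of 4. Fgf7 and Hgf peak on Day3 at means of 52.8 and 19.6 CPM, Fgfr2 is lowest there at 32.4 CPM, Fgf5 is highest on Day14 at 9.60 CPM, and Met stays between 32.0 and 53.4 CPM in every library.

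Fgf7, the keratinocyte growth factor of dermal fibroblasts, was highest on Day3. Its Day0 libraries read 17.9, 26.9, 27.7 and 17.6 CPM, and its Day3 libraries 50.6, 53.0, 54.5 and 53.2 CPM. All Day3 libraries lay above all Day0 libraries, a 2.35-fold rise (log2 fold change 1.23 ± 0.11 SE, adjusted p = 6.22e-11, n = 4 per day, edgeR). Day5 was in between, with 35.3, 32.8, 30.8 and 33.6 CPM and a log2 fold change of 0.56 ± 0.11 (adjusted p = 5.67e-05). The level then went below Day0, to 14.3 to 16.3 CPM on Day10 (log2 fold change -0.57, adjusted p = 7.54e-05) and 12.9 to 15.3 CPM on Day14 (-0.66, adjusted p = 7.17e-06). From Day10 to Day12 it rose by 0.43 ± 0.11 on the log2 scale (adjusted p = 0.00233), to 17.9 to 21.7 CPM. Both late falls passed against either pair of Day0 libraries, with -0.85 and -0.93 against libraries 2 and 3 and -0.22 and -0.23 against libraries 1 and 4. On Day7 and Day12 the values overlapped those of Day0 and the differences did not pass (-0.17 and -0.14), and there the choice of Day0 libraries set the sign. Against libraries 2 and 3 alone the Day7 difference was -0.44 (adjusted p = 2.31e-05), and against libraries 1 and 4 alone it was 0.18 (adjusted p = 0.0813). For Day12 the same references gave -0.42 (adjusted p = 5.05e-05) and 0.22 (adjusted p = 0.0369). Without Day0 library 1 or library 4 singly, the Day7 fall passed the test (-0.26, adjusted p = 0.037, and -0.27, adjusted p = 0.0319).

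Fgf10, the other main ligand of the epithelial FGFR2 and a factor of dermal and adipose precursor cells, went the opposite way. It fell on Day3, from 6.05, 8.74, 8.48 and 7.65 CPM on Day0 to 5.64, 4.90, 6.07 and 5.74 CPM (log2 fold change -0.47 ± 0.11, adjusted p = 0.000495), although the highest Day3 library touched the range of Day0. It was highest on Day14, with 12.6, 12.5, 12.6 and 11.8 CPM, above every Day0 library (0.68 ± 0.11, adjusted p = 3.38e-06). The rise came in steps from Day5 to Day7 (0.51 ± 0.11, adjusted p = 0.000656) and from Day12 to Day14 (0.33 ± 0.11, adjusted p = 0.011). Other calls of Fgf10 changed with single libraries or settings. The Day5 fall (-0.28, adjusted p = 0.0271) did not pass without Day0 library 2 (-0.22, adjusted p = 0.0992), Day0 library 3 (-0.24, adjusted p = 0.0809) or Day5 library 2 (-0.23, adjusted p = 0.0934). The Day12 rise (0.34, adjusted p = 0.00946) did not pass without Day12 library 4 (0.27, adjusted p = 0.0538). On Day7 and Day10 the differences of 0.22 each did not pass, but did without Day0 library 2 (0.29 each, adjusted p = 0.038 and 0.041). With all libraries the Day10 rise passed with limma on log2(FPKM + 0.1) and log2(FPKM + 1) (0.27 and 0.18, adjusted p = 0.0307 and 0.0258) and with no composition normalization (0.275, adjusted p = 0.0353). With Day0 libraries 1 and 4 alone as the reference, the Day3 fall was -0.245 and did not pass (adjusted p = 0.0932), while Day7 and Day10 passed as rises (0.40 each, adjusted p = 0.00911 and 0.00991). With libraries 2 and 3 alone, the Day12 rise was 0.19 (adjusted p = 0.177).

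Within each library the ratio of Fgf7 to Fgf10 therefore swung widely. On the scale of length-scaled levels (FPKM, counts scaled to gene length and library total), Fgf7 was 4.96 ± 0.72 (SD, n = 4) times as high as Fgf10 on Day0, 16.3 ± 1.5 times on Day3 and 1.98 ± 0.19 times on Day14. The log2 ratio of CPM differed from Day0 by 1.72 on Day3, 0.86 on Day5, -0.77 on Day10 and -1.31 on Day14. In all 4 comparisons every library of the wound day lay on one side of every Day0 library (exact two-sided permutation test, p = 0.0286, the smallest that 4 against 4 allows, and 0.0476 after adjustment over the 30 ratios tested). On Day7 and Day12 the ratios overlapped those of Day0 (adjusted p = 0.0816 and 0.112).

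Fgf22, another ligand of this subfamily, was at a low level and did not follow Fgf7. Its counts were 104, 82, 62 and 31 on Day0, 15, 27, 32 and 16 on Day3, and 155, 215, 169 and 173 on Day12. Day12 lay above all Day0 libraries (log2 fold change 1.16 ± 0.25, adjusted p = 0.000449), and the order of days from lowest to highest was Day3, Day10, Day5, Day0, Day7, Day14 and Day12. Of the neighbours in that order, Day14 and Day12 alone did not overlap. Between adjacent days Fgf22 rose from Day5 to Day7 (log2 fold change 1.39, adjusted p = 0.00024), fell to Day10 (-1.89, adjusted p = 6.18e-06) and rose to Day12 (2.57, adjusted p = 2e-08). Against Day0 it was lower on Day3 (-1.57, adjusted p = 3.18e-05), Day5 (-0.91, adjusted p = 0.00559) and Day10 (-1.41, adjusted p = 0.000148), although on Day3 and Day5 the libraries overlapped the lowest Day0 library. The Day5 call was lost without Day0 library 1 (-0.64, adjusted p = 0.0512), and without the same library the Day7 difference of 0.48 became 0.74 and passed (adjusted p = 0.0209), as it did with limma on log2(FPKM + 1) (0.31, adjusted p = 0.0484). The Day14 rise (0.62 ± 0.26, adjusted p = 0.0364) did not pass without Day0 library 3 (0.61) or 4 (0.47), or without Day14 library 1 (0.55), 2 (0.60) or 4 (0.63), with adjusted p from 0.0549 to 0.0942. It was also lost in the 8 libraries alone (0.695, adjusted p = 0.085) and against Day0 libraries 1 and 4 alone (0.71, adjusted p = 0.0585). Rnf126, which shares exonic bases with it, was at a mean of 40.7 CPM on Day0, 43.0 on Day3, 46.3 on Day12 and 60.8 on Day14, and its part in the Fgf22 counts was not tested.

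Fgf5, which ends the growth phase of the hair cycle, had the largest ratio of highest to lowest mean CPM of the 10 genes. It was lowest on Day3 and highest on Day14. The Day0 libraries had 46, 23, 35 and 17 counts, the Day3 libraries 6, 1, 2 and 0, and the Day5 libraries 4, 1, 6 and 4. It was thus almost undetected early, and fold changes against Day3 or Day5 are fitted values that rest on these few counts. A library without a count still allows up to 3. On Day7 the libraries had 51, 65, 56 and 41 counts, on Day10 11, 10, 6 and 6, on Day12 174, 248, 171 and 204, and on Day14 429, 424, 416 and 324. The level therefore rose, fell and rose again, with log2 fold changes between adjacent days of 3.74 ± 0.39 (Day7 against Day5, adjusted p = 2.12e-08), -2.70 ± 0.34 (Day10 against Day7, adjusted p = 5.01e-07), 4.44 ± 0.32 (Day12 against Day10, adjusted p = 1e-11) and 1.07 ± 0.23 (Day14 against Day12, adjusted p = 0.000463). Against Day0, Day12 was 5.73-fold and Day14 12.0-fold higher (log2 2.52 ± 0.27 and 3.59 ± 0.27, adjusted p = 1.36e-08 and 6.1e-12), and no library of these days overlapped Day0. Day3, Day5 and Day10 were lower (-3.63 ± 0.46, -2.96 ± 0.41 and -1.93 ± 0.36), and without any one library the Day3 value ran from -4.66 to -3.19. With limma on log2(FPKM + 1), a scale that understates changes of low genes, the Fgf5 values were -0.35, -0.33 and -0.27 on these 3 days, 1.18 on Day12 and 1.96 on Day14, and each still passed. The smaller rise on Day7 (0.77 ± 0.28, adjusted p = 0.0237) was not called without Day0 library 2 (0.65) or 4 (0.60) or Day7 library 2 (0.66), with adjusted p between 0.072 and 0.0831. It was also lost in the 8 libraries alone (0.74, adjusted p = 0.095) and against Day0 libraries 1 and 4 alone (0.68, adjusted p = 0.0916).

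The summed markers of the hair shaft and root sheath moved with Fgf5 and Fgf22, while the sums for other cells of the hair follicle did so less closely. The summed CPM of 12 hair shaft and root sheath genes was 305 to 2455 on Day0, 8.10 to 15.1 on Day3, 14.4 to 23.8 on Day5, 1455 to 1975 on Day7, 338 to 383 on Day10, 5263 to 6912 on Day12 and 5192 to 6962 on Day14, and none of the 12 was at 0 in all libraries of a day. It was thus low, high, low and high on the same days as Fgf5. Over the 28 libraries, which share the day as a source of variation, Pearson's r with the log2 sum was 0.93 for Fgf5, 0.84 for Fgf22 and 0.85 for Fgf10. Other lists came close to or above these values. For Fgf10 they were melanocyte (0.87), macrophage (-0.86) and neutrophil markers (-0.75), for Fgf5 endothelial (-0.88), melanocyte (0.84) and neutrophil markers (-0.81), and for Fgf22 endothelial markers (-0.73). Among 13971 genes, those whose log2 CPM followed Fgf5 most closely were Ly6g6g (r = 0.97), the hair keratin gene Krt31 (0.97, itself one of the 12 markers) and Pinlyp (0.97), and those nearest to Fgf22 were the hair keratin-associated genes Krtap4-1, Krtap3-2 and Krtap21-1 (0.96 each). Fgf22 was lower on Day14 than on Day12 in all libraries without passing the test (-0.54 ± 0.25, adjusted p = 0.0764). The difference passed in the 8 libraries alone (-0.51, adjusted p = 0.0105) and with limma on log2(FPKM + 1) (-0.40, adjusted p = 0.0153), while the marker sum overlapped between these days and Fgf5 still rose. Melanocyte markers (5 genes), cells that hair follicles also hold, summed to 35.5 to 102 CPM on Day0, 4.66 to 6.05 on Day3, 17.7 to 19.5 on Day5, 42.6 to 46.2 on Day7, 148 to 169 on Day10, 336 to 416 on Day12 and 701 to 863 on Day14. Their sum thus rose from Day7 to Day10, where Fgf5 and Fgf22 fell. Dermal papilla markers (7 genes), of the mesenchymal cells at the base of the follicle, summed to 19.4 to 25.9 CPM on Day0, 36.9 to 50.7 on Day3, Day5 and Day7, 84.5 to 87.2 on Day10, 73.4 to 77.6 on Day12 and 103 to 109 on Day14. This sum was above Day0 on Day3 and Day10, when Fgf5 and Fgf22 were called lower, with r = 0.49 for Fgf5, 0.24 for Fgf22 and 0.66 for Fgf10. It weighs the most abundant of the 7 genes most, and the course of each gene is not described here. The part of hair follicles in each sample in these levels was not tested.

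**Figure D2:**
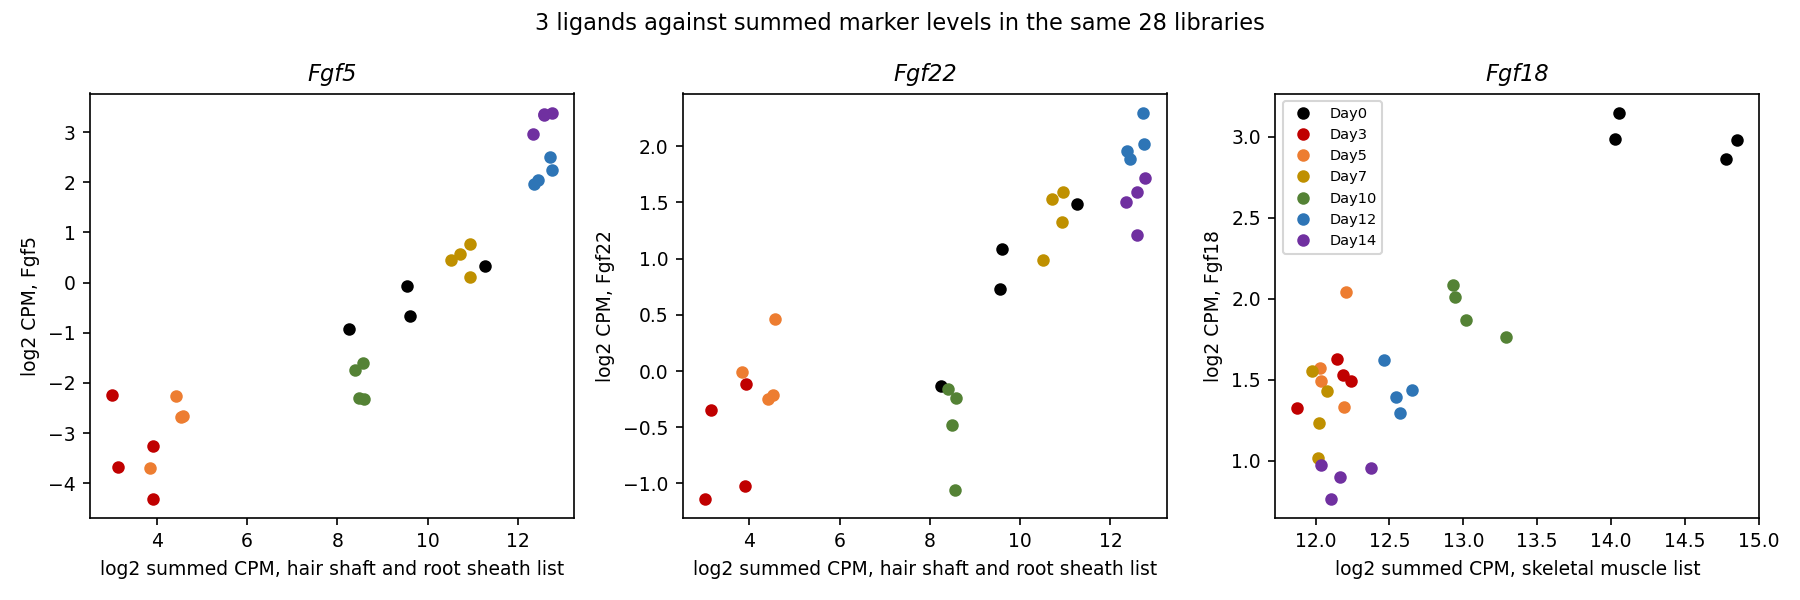
Log2 CPM of Fgf5, Fgf22 and Fgf18 (vertical axes) against the log2 summed CPM of a marker list (horizontal axes), with a point for each of the 28 libraries coloured by day. Fgf5 and Fgf22 follow the hair shaft and root sheath list (r = 0.93 and 0.84), and Fgf18 is set apart by the 4 Day0 libraries, which also have the highest skeletal muscle sums (r = 0.87).

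Fgf18 and Fgf2 were highest on Day0. Fgf18, a ligand of FGFR3 and other receptors that is known from the resting hair follicle and from cartilage and bone, had 7.21, 7.86, 8.81 and 7.85 CPM on Day0 and between 1.65 and 4.19 CPM in every library of the wound days. It was lower on all 6 days, with log2 fold changes from -1.07 ± 0.14 (Day10) to -2.12 ± 0.14 (Day14) and adjusted p of at most 2.17e-07. On the wound days it was highest on Day10, after a rise from Day7 of 0.62 ± 0.14 (adjusted p = 0.00117), and fell to Day12 (-0.50, adjusted p = 0.00523) and Day14 (-0.55, adjusted p = 0.00305). The genes nearest to Fgf18 were Asb2 (r = 0.95), St3gal6 (0.94) and Asb14 (0.93), and its r with the summed skeletal muscle markers was 0.87, beside -0.80 for cycling cell markers and 0.74 for Schwann cell markers. These muscle markers markers summed to 16701 to 29656 CPM on Day0, 3758 to 5313 on Day3, Day5, Day7 and Day14, 7800 to 10032 on Day10 and 5644 to 6432 on Day12. Within Day0, Fgf18 was not higher in the pair of libraries with more of them. The part of muscle in the Fgf18 values was not tested.

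Fgf2, a mitogen that cells store without a classical secretion signal, was lower than on Day0 on all 6 days, in every library. Its Day0 libraries read 28.7, 35.2, 33.9 and 40.6 CPM, and the wound days together 19.4 to 28.1 CPM. The fall was small, with log2 fold changes from -0.32 ± 0.09 on Day3 (adjusted p = 0.00172) to -0.68 ± 0.09 on Day14 (adjusted p = 1.1e-07). Among wound days it fell from Day3 to Day5 (-0.28, adjusted p = 0.0176), but not without Day5 library 4 (-0.21, adjusted p = 0.0742), and from Day12 to Day14 (-0.22, adjusted p = 0.0365), but not without any one of Day12 libraries 2, 3 and 4 or Day14 libraries 1, 2 and 3 (-0.23 to -0.18, adjusted p from 0.0518 to 0.135). The last fall was also lost under 6 of 11 other settings (-0.204 to -0.18), among them DESeq2 (adjusted p = 0.0967), upper quartile normalization (adjusted p = 0.0903) and no filter on low counts (adjusted p = 0.106). Nudt6, which overlaps it on the opposite strand, was at 4.22 to 7.69 CPM in all libraries. Fyco1 (r = 0.89), Gramd4 (0.89) and Il12rb2 (0.87) were nearest to Fgf2 over the 28 libraries. The marker lists with the largest r were skeletal muscle (0.67), cycling cell (-0.67), dermal papilla (-0.66) and Schwann cell markers (0.62). The part of these cells in the Fgf2 values was not tested.

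The ratio of Fgf5 to Fgf18, factors that are both known from the hair cycle, turned over the series. Scaled to length, Fgf5 was at 0.0626 ± 0.0297 times the level of Fgf18 on Day0 and at 3.25 ± 0.26 times on Day14 (SD, n = 4). The log2 ratio of CPM was 2.49 higher on Day7 than on Day0, 4.08 higher on Day12 and 5.68 higher on Day14, each with all libraries above those of Day0 (exact permutation test, p = 0.0286, adjusted p = 0.0476). On Day3, Day5 and Day10 the differences were -1.54, -1.11 and -0.60 and the libraries overlapped Day0. The Day3 and Day5 values rest on at most 6 Fgf5 counts per library and moved with the prior count added before the logarithm. With 0.5 in place of 2 they were -2.425 and -1.545, and the Day5 difference then passed after adjustment.

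Hgf, the mesenchymal ligand of MET, had the largest early rise of the 10 genes. Its libraries read 4.62, 6.04, 6.20 and 5.20 CPM on Day0 and 20.2, 19.0, 19.0 and 19.98 CPM on Day3, a 3.54-fold rise (log2 1.83 ± 0.11, adjusted p = 2.26e-14). Unlike Fgf7 it stayed up, at 10.8 to 15.2 CPM on Day5, Day7 and Day10, with log2 fold changes of 1.22, 1.32 and 1.16 (each ± 0.11, adjusted p of at most 8.89e-10). It then fell in 2 steps, with -0.77 ± 0.11 from Day10 to Day12 (adjusted p = 1.13e-06) and -0.71 ± 0.11 from Day12 to Day14 (adjusted p = 6.87e-06). Day12 was still above Day0 (0.39 ± 0.11, adjusted p = 0.00446), although against Day0 libraries 2 and 3 alone the difference was 0.24 (adjusted p = 0.111). On Day14, with 4.53, 4.97, 3.56 and 4.53 CPM, Hgf was slightly below Day0 (-0.33 ± 0.11, adjusted p = 0.0125), a call lost without Day0 library 2 (-0.235, adjusted p = 0.0977), 3 (-0.22, adjusted p = 0.116) or 4 (-0.27, adjusted p = 0.0521) or Day14 library 3 (-0.24, adjusted p = 0.0676). It was also lost with no composition normalization (-0.20, adjusted p = 0.145) and against Day0 libraries 1 and 4 alone (-0.08, adjusted p = 0.631). The genes nearest to it were Adamts4 (r = 0.97), Adgra2 (0.96) and Lpin2 (0.96). Those nearest to Fgf7 were Btg2 (0.97), an antiproliferative early response gene, and the acute-phase genes Lbp and Cp (0.97 and 0.96).

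Macrophage and neutrophil markers had their highest sums on Day3. Macrophage markers (7 genes) summed to 1098 to 1548 CPM on Day0, 2737 to 2838 on Day3, 2612 to 2754 on Day5, 1777 to 1882 on Day7, 918 to 1023 on Day10, 1023 to 1134 on Day12 and 378 to 412 on Day14. Neutrophil markers went from their Day3 level to 1586 to 1997 CPM on Day5, 540 to 955 on Day7, 222 to 247 on Day10 and 15.2 to 23.2 on Day12 and Day14. On Day10 the macrophage sum was thus below every Day0 library, while Hgf was still above them all. Endothelial markers (7 genes) summed to 459 to 643 CPM on Day0, 894 to 1005 on Day3 and Day5, 708 to 846 on Day7 and Day10 and 444 to 501 on Day12 and Day14. Over the 28 libraries, r of the log2 sum of neutrophil markers was 0.92 with Hgf and 0.71 with Fgf7, that of macrophage markers 0.77 and 0.82, and that of endothelial markers 0.88 and 0.66. The fibroblast sum, 21474 to 23571 CPM on Day3 and 55080 to 56072 on Day7, had r = 0.35 with Hgf and -0.10 with Fgf7. Melanocyte and hair lists had negative r of similar size, with -0.76 and -0.73 for Hgf and -0.88 and -0.81 for Fgf7. Which cells held these transcripts was not tested.

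**Figure D3:**
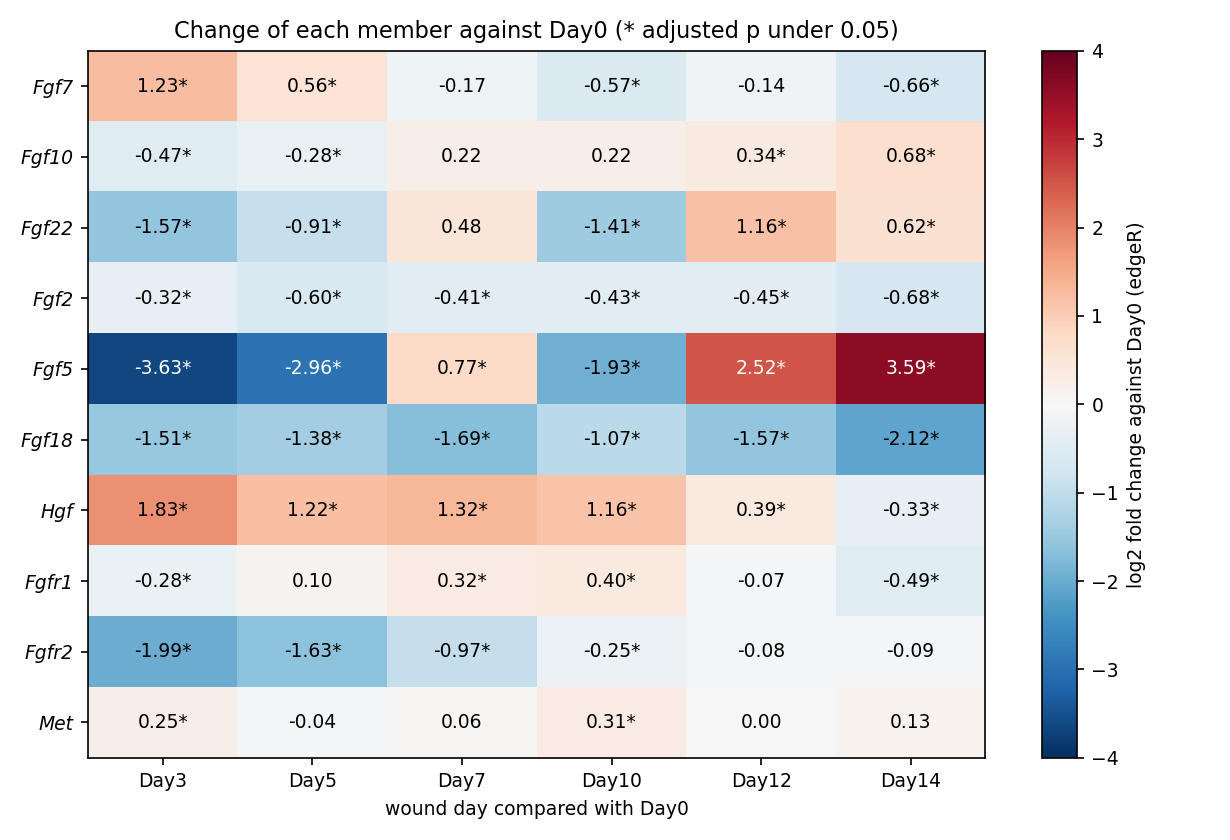
Log2 fold change of each gene (rows) on each wound day against Day0 (columns), from edgeR, with red for higher, blue for lower and an asterisk where the adjusted p was under 0.05. Hgf is positive from Day3 (1.83) to Day12 (0.39), Fgfr2 climbs from -1.99 to -0.09, Fgf18 and Fgf2 are negative on all 6 days, and Fgf5 runs from -3.63, a fitted value from 0 to 6 counts per library, to 3.59.

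Fgfr2, the receptor that carries FGF7 and FGF10 signals in keratinocytes, fell on Day3 and returned in steps. The Day0 libraries read 122, 117, 116 and 160 CPM and the Day3 libraries 37.2, 30.8, 31.2 and 30.5 CPM, with no overlap (3.97-fold lower, log2 fold change -1.99 ± 0.09, adjusted p = 3.68e-17). The differences from Day0 were -1.63 ± 0.09 on Day5, -0.97 ± 0.08 on Day7 and -0.25 ± 0.08 on Day10, and the levels 35.5 to 45.4, 61.0 to 70.8 and 106 to 112 CPM. By Day12 and Day14 it was at 117 to 125 CPM, within the range of Day0 (-0.08 and -0.09, adjusted p = 0.442 and 0.38). Each step up to Day10 passed the test, with 0.36 ± 0.09 from Day3 to Day5 (adjusted p = 0.00237, with libraries that overlapped), 0.66 ± 0.08 to Day7 (adjusted p = 7e-07) and 0.72 ± 0.08 to Day10 (adjusted p = 1.39e-07). From Day10 to Day12 all libraries were higher without passing (0.17 ± 0.08, adjusted p = 0.115), and this step passed in the 8 libraries alone (0.18, adjusted p = 0.000373), with no composition normalization (0.26, adjusted p = 0.0174) and with limma on both FPKM scales (0.255 and 0.245, adjusted p = 0.019 and 0.0154). The small Day10 difference from Day0 was lost without Day0 library 4, the highest of that day (-0.12, adjusted p = 0.136), against Day0 libraries 2 and 3 alone (-0.10, adjusted p = 0.289) and with no composition normalization (-0.19, adjusted p = 0.0615). The nearest genes were Lratd1 (r = 0.99), the dystrophin gene Dmd (0.98) and the laminin gene Lamc3 (0.98).

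Keratinocyte marker lists stood at different levels on Day3. Basal keratinocyte genes (6 genes) summed to 3068 to 6886 CPM on Day0 and 3543 to 4404 on Day3, ranges that overlapped. Of these 6 genes, 4 were called lower on Day3 (34.8% of all genes), and the median log2 fold change of the list was -0.70. Sums of CPM weigh the most abundant genes of a list most. Wound edge keratinocyte genes (5 genes) summed to 471 to 714 CPM on Day0 and 2589 to 3146 CPM on Day3. Suprabasal genes (6 genes) went from 3271 to 3675 CPM on Day0 to 901 to 1248 on Day3 and then to 1962 to 2258 on Day5, 2847 to 3338 on Day7, 1683 to 2005 on Day10, 3064 to 3405 on Day12 and 1078 to 1453 on Day14, and were thus low again on Day14, when Fgfr2 was within its Day0 range. The hair list, given above, was almost absent on Day3, and r of Fgfr2 with its log2 sum over the 28 libraries was 0.83, against 0.43 for the basal list and 0.42 for the suprabasal list. From Day7 to Day10 that sum fell while Fgfr2 rose. Other lists had an r with Fgfr2 of like or larger size, namely neutrophil (-0.93), endothelial (-0.85), melanocyte (0.85), macrophage (-0.80), wound edge keratinocyte (-0.77) and Schwann cell markers (0.73). The part of these cells in the Fgfr2 values was not tested.

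Fgfr1, the main FGF receptor of fibroblasts and other mesenchymal cells, changed less and in another order. It went from 172, 173, 174 and 165 CPM on Day0 to 141, 146, 142 and 136 CPM on Day3 (-0.28 ± 0.05, adjusted p = 1.32e-05), up to 216 to 237 CPM on Day10 (0.40 ± 0.05, adjusted p = 8.61e-08) and down to 115 to 126 CPM on Day14 (-0.49 ± 0.05, adjusted p = 1.2e-09). On each of these days all 4 libraries lay on one side of Day0. Between adjacent days it rose to Day5 (0.37) and Day7 (0.22) and fell to Day12 (-0.47) and Day14 (-0.42), each with adjusted p of at most 0.000736. The step from Day7 to Day10 passed only with limma on both FPKM scales (0.13 each, adjusted p = 0.0125 and 0.0107), no composition normalization (0.13, adjusted p = 0.0258) and upper quartiles (0.125, adjusted p = 0.0416). The Day5 difference from Day0 (0.10 ± 0.05, adjusted p = 0.0876) did not pass although the libraries did not overlap, and passed without Day5 library 3 (0.13, adjusted p = 0.0341). Fibroblast markers (7 genes) had r = 0.85 with Fgfr1, and summed to 52464 to 59681 CPM on Day10 and 16000 to 19161 on Day14. Within Day0 their sum ran from 14296 to 55989 CPM, while Fgfr1 stayed at 165 to 174 CPM. The next largest r with Fgfr1 was 0.54, for both myofibroblast and suprabasal keratinocyte markers. The part of fibroblasts in the Fgfr1 values was not tested. Igdcc4, Mrgprf and Gdf11 were nearest to it (r = 0.94 each).

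The balance of both receptors therefore moved with time. Per length, Fgfr1 was 1.44 ± 0.23 times as high as Fgfr2 on Day0, 4.66 ± 0.45 times on Day3, 4.72 ± 0.65 times on Day5, 3.45 ± 0.20 times on Day7 and 1.07 ± 0.046 times on Day14 (SD, n = 4). On the log2 scale the ratio of CPM was above Day0 by 1.70 on Day3, 1.72 on Day5, 1.27 on Day7 and 0.63 on Day10, with no overlap (exact permutation test, p = 0.0286, adjusted p = 0.0476). On Day12 and Day14 it overlapped Day0 (differences of -0.003 and -0.41, adjusted p = 1 and 0.0816). Fgf7 and its receptor moved apart and came back together, with a log2 ratio of Fgf7 to Fgfr2 above Day0 by 3.24 on Day3, 2.21 on Day5 and 0.82 on Day7 (p and adjusted p as for the receptors). Per length, Fgf7 was at 3.29 ± 0.38 times the level of Fgfr2 on Day3 and at 0.363 ± 0.13 times on Day0. On Day10, Day12 and Day14 this ratio overlapped Day0 (differences of -0.30, -0.04 and -0.55).

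Met, the receptor of HGF, had the smallest ratio of highest to lowest mean CPM of the 10 genes. It read 45.0, 35.8, 33.5 and 49.4 CPM on Day0, 46.0, 46.7, 48.1 and 53.4 CPM on Day3 and 50.7, 53.1, 53.4 and 46.2 CPM on Day10, and the highest and lowest day means differed 1.28-fold. The rises on Day3 (0.25 ± 0.10, adjusted p = 0.0322) and Day10 (0.31 ± 0.10, adjusted p = 0.0107) passed the test while the libraries overlapped those of Day0. The Day3 rise was lost without Day0 library 2 (0.19, adjusted p = 0.119) or 3 (0.165, adjusted p = 0.156), with no composition normalization (0.19, adjusted p = 0.0971), with upper quartiles (0.16, adjusted p = 0.131), with limma on either FPKM scale (0.20 and 0.18, adjusted p = 0.0877 and 0.0916) and in the 8 libraries alone (0.22, adjusted p = 0.124). The Day10 rise was lost without Day0 library 3 (0.23, adjusted p = 0.062). Against Day0 libraries 1 and 4 alone neither passed (0.09 and 0.11, adjusted p = 0.427 and 0.38) and Day5 passed as a fall (-0.235, adjusted p = 0.0374), whereas against libraries 2 and 3 alone Day7, Day12 and Day14 passed as rises too (0.30, 0.25 and 0.375, adjusted p = 0.0104, 0.0358 and 0.0012). Without Day0 library 1 or 4, the Day14 difference passed as well (0.26, adjusted p = 0.0338, and 0.315, adjusted p = 0.0061). With all libraries the Day14 difference of 0.13 did not pass (adjusted p = 0.253), but it did with no composition normalization (0.26, adjusted p = 0.0254) and with limma on log2(FPKM + 0.1) and log2(FPKM + 1) (0.27 and 0.24, adjusted p = 0.0249 and 0.0254). Between wound days it fell from Day3 to Day5 (-0.29, adjusted p = 0.0375) and from Day10 to Day12 (-0.31, adjusted p = 0.0153). The first fall was lost without Day3 library 4 (-0.28, adjusted p = 0.0642), Day5 library 2 (-0.29, adjusted p = 0.0693) or Day5 library 4 (-0.20, adjusted p = 0.145) and with the replicate number as a block (-0.29, adjusted p = 0.0521), the second without Day10 library 2 or 3 (-0.27 and -0.28, adjusted p = 0.0513 and 0.0509). Both were lost with no composition normalization (-0.27 and -0.22, adjusted p = 0.052 and 0.0832) and with limma on log2(FPKM + 0.1) (-0.28 and -0.215, adjusted p = 0.0554 and 0.0993) and log2(FPKM + 1). From Day7 to Day10 it was higher by 0.25 without passing (adjusted p = 0.0539), but it passed under 9 of 11 other settings (0.26 to 0.305), among them DESeq2 (adjusted p = 0.0447), the 8 libraries alone (adjusted p = 0.00245) and upper quartile normalization (adjusted p = 0.0137). It also passed without Day7 library 2 (0.30, adjusted p = 0.041) or Day10 library 4 (0.30, adjusted p = 0.0373). No gene followed it as closely as the other 9 were followed, the nearest being Lrrc4 (r = 0.72), Prepl (0.71) and Cdk6 (0.70).

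The balance of Hgf to Met followed the ligand. Per length, Hgf was at 0.135 ± 0.041 times the level of Met on Day0, 0.388 ± 0.026 times on Day3 and 0.0943 ± 0.014 times on Day14 (SD, n = 4). The log2 ratio of CPM was above Day0 by 1.56 on Day3, 1.25 on Day5, 1.24 on Day7 and 0.83 on Day10, with all libraries above those of Day0 (exact permutation test, p = 0.0286, adjusted p = 0.0476). On Day12 and Day14 it overlapped Day0 (0.37 and -0.47, adjusted p = 0.254 and 0.165).

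**Figure D4:**
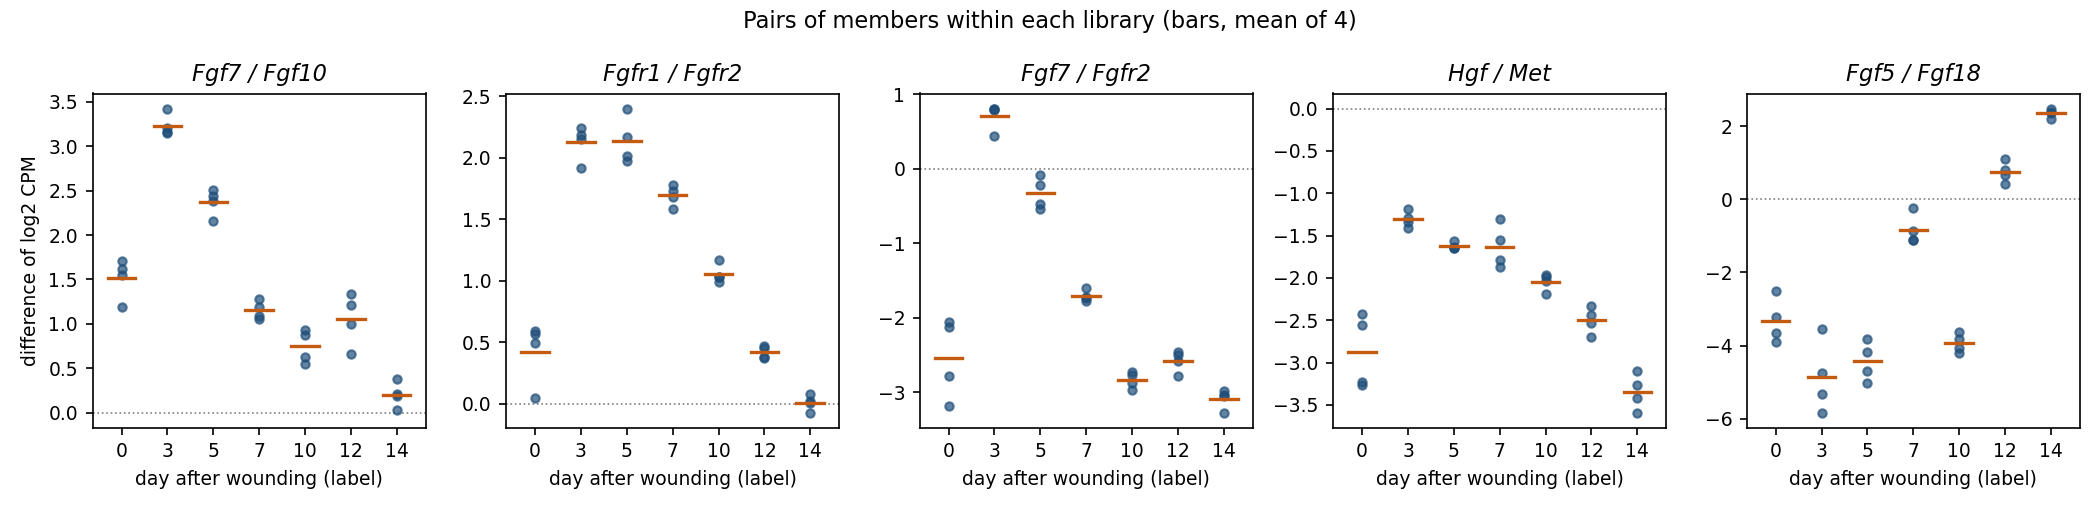
Difference of log2 CPM between the genes of each pair (vertical axes) by labelled day (horizontal axes), with a point per library and a bar at the mean of 4. Fgf7 over Fgf10, Fgfr1 over Fgfr2, Fgf7 over Fgfr2 and Hgf over Met are raised on Day3 (by 1.72, 1.70, 3.24 and 1.56 against Day0) and decline later, while Fgf5 over Fgf18 is highest on Day14 (by 5.68).

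Step by step through healing, 6 of the 10 genes were called from Day3 to Day5 (24.3% of all genes), 6 from Day5 to Day7 (28.5%), 5 from Day7 to Day10 (32.3%), 7 from Day10 to Day12 (39.4%) and 7 from Day12 to Day14 (45.2%). The first step held the falls of Fgf7 and Hgf and the first rise of Fgfr2. In the second, Fgfr2, Fgfr1, Fgf10, Fgf5 and Fgf22 rose and Fgf7 fell further. In the last, Fgf5 and Fgf10 rose, and Fgf7, Hgf, Fgf18 and Fgfr1 fell, as did Fgf2 with the dependence on settings given above. Without any one library these counts were 4 to 6, 6 to 7, 5 to 6, 6 to 7 and 6 to 7. At the limits of the study 0, 1, 2, 2 and 0 of the 10 were called, beside 2.91%, 3.66%, 4.61%, 6.01% and 3.57% of all genes.

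Other genes of the pathway were followed by lists. Of 12 further secreted FGF genes, 11 were in the table and 6 passed the filter, and against Day0 1 was higher and 4 were lower on Day3 (31.8% and 34.8% of all genes). The gene that rose was Fgf23, a phosphate-regulating hormone made mainly by bone, with 1 to 15 counts per library on Day0, 1659 to 2063 on Day3, 113 to 210 on Day5 and 0 to 17 from Day7 on. Its mean was 50.1 ± 5.04 CPM on Day3 (SD, n = 4) and its log2 fold change 8.54 ± 0.39 (adjusted p = 9.13e-17). Day3 thus held nearly all of its transcripts. The coreceptor gene Klb rose by 1.42 on Day3 (adjusted p = 0.000197), from a Day0 range of 143 to 888 counts to 964 to 1405, and Kl, the known coreceptor of FGF23, was named after its values were seen, had 0 to 5 counts in every library and was not tested. Fgf4 and Fgf16 fell most on Day3, Fgf4 from 17 to 28 counts on Day0 to 1 to 2 and Fgf16 from 27 to 57 counts to 4 to 13. Fgf9, a ligand known from hair follicle formation in wounds, was called lower on every wound day but Day5 (-1.70 on Day10), at 13 to 17 counts on Day10 against 33 to 60 on Day0. Fgf21 was called on Day5, with 14 to 40 counts against 1 to 6 on Day0 (3.15, adjusted p = 0.00022). The median log2 fold change of the 6 was -1.35 on Day3 and -1.71 on Day14, beside -0.03 and -0.06 over all genes.

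Of the 4 genes of the FGF homologous factors, which stay inside cells, 3 fell on Day3, Day5, Day10 and Day14. Of all genes, 34.8%, 30.6%, 26.9% and 34.5% were called lower on these days. On Day3 the log2 fold changes of Fgf13 and Fgf12 were -2.06 and -2.40, and Fgf14 rose (1.04, adjusted p = 0.00299) from 12 to 36 counts to 21 to 54. Schwann cell markers (5 genes) went from 564 to 939 CPM on Day0 to 162 to 176 on Day3 at the same time, and their part was not tested.

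The other receptors split by day. Of 5 tested, 4 fell on Day3 (34.8% of all genes), among them Fgfr4 (-2.08, adjusted p = 8.85e-12) and Fgfr3 (-0.66, adjusted p = 1.4e-07), both FGF receptors found in epithelia. Fgfr3 then rose above Day0 on Day12 (0.43, adjusted p = 0.000133) and Day14 (0.89, adjusted p = 4.99e-10), from 42.2 ± 5.54 CPM on Day0 to 78.4 ± 2.55 on Day14. Fgfr4 was low again on Day14 (-1.83, adjusted p = 1.16e-10), as was Mst1r, the receptor of an HGF-like ligand (-0.89, adjusted p = 2.02e-07). The epithelial splicing regulators Esrp1 and Esrp2, which set the IIIb form of Fgfr2, fell together with Fgfr2 on Day3 (-1.28 and -1.03) and Day5 (-1.29 and -1.21). Esrp2 rose above Day0 on Day12 and Day14 (0.28 and 0.76). Rbfox2 and Ptbp1 were on the same list and are not described here. Esrp1 was at 100.4 ± 10.6 CPM on Day0, 41.4 ± 6.49 on Day3 and 127 ± 5.47 on Day14.

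Genes of HGF activation were called in both directions, as genes were in the whole table. Of 12 listed, 9 passed the filter, with 3 higher and 5 lower on Day3, where 31.8% and 34.8% of all genes were called. The plasminogen activator genes Plat and Plau rose on Day3 (0.64 and 0.48), and Plat reached a log2 fold change of 1.55 on Day7 (adjusted p = 9.17e-11). St14, the matriptase gene of epithelia, and Spint2, an inhibitor of such proteases, fell on Day3 (-1.21 and -1.19) and Day5 (-1.44 and -1.23). St14 and the inhibitor gene Spint1 rose together on Day12 (1.09 and 1.31) and Day14 (1.84 and 2.01). St14 went from 51.7 ± 5.97 CPM on Day0 to 19.0 ± 1.30 on Day5 and 185 ± 15.5 on Day14.

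Genes of heparan sulfate core proteins, heparan sulfate enzymes and FGF binding proteins were called in both directions on every day. Of 21, 8 were higher and 9 lower on Day3 (31.8% and 34.8% of all genes), 12 and 3 on Day7 (25.6% and 24.8%), and 8 and 10 on Day14 (28.2% and 34.5%). Sdc3 and Sulf1, a syndecan and a heparan sulfatase, rose on Day3 (1.18 and 1.17), and the glypican genes Gpc6 and Gpc3 fell (-1.97 and -1.84). Gpc6 rose above Day0 by Day10 (1.06, adjusted p = 5.81e-08) and Sdc1 on Day14 (0.98, adjusted p = 2.13e-14). Fgfbp1, whose product frees FGF from matrix, fell on Day5 (-1.26) and Day7 (-1.40). Of 10 listed genes of proteins that act with FGFR and MET inside the cell, 3 rose and 4 fell on Day3 (31.8% and 34.8% of all genes). The largest of these rises were Cbl and Grb2 (0.71 and 0.70). On Day14 none of the 10 rose and 5 fell (28.2% and 34.5% of all genes), with Frs3 lowest (-0.61, adjusted p = 0.0184).

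Transcripts known to rise with receptor tyrosine kinase signalling, many of them its inhibitors, were called in both directions, with 11 of 20 higher and 6 lower on Day3 (31.8% and 34.8% of all genes) and 8 and 7 on Day14 (28.2% and 34.5%). Fosl1 and Ier3 rose most on Day3 (2.82 and 2.31) and again led on Day5 (2.22 and 1.96), and Spry1 and Il17rd fell most on Day3 (-1.24 each). Spry1, a feedback inhibitor, was also the largest fall on Day5 and Day7 (-1.07 and -0.90), from 39.7 ± 2.62 CPM on Day0 to 16.8 ± 1.02 on Day3. Etv4 and Flrt3 led the late rises, with Etv4 at 2.23 on Day12 and 2.76 on Day14 (adjusted p = 1.99e-13) and Flrt3 at 1.04 and 1.38, while Etv1 fell on Day14 (-1.52). The medians of the list were 0.27 on Day3 and 0.14 on Day14. None of these values measures signalling itself.

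**Figure D5:**
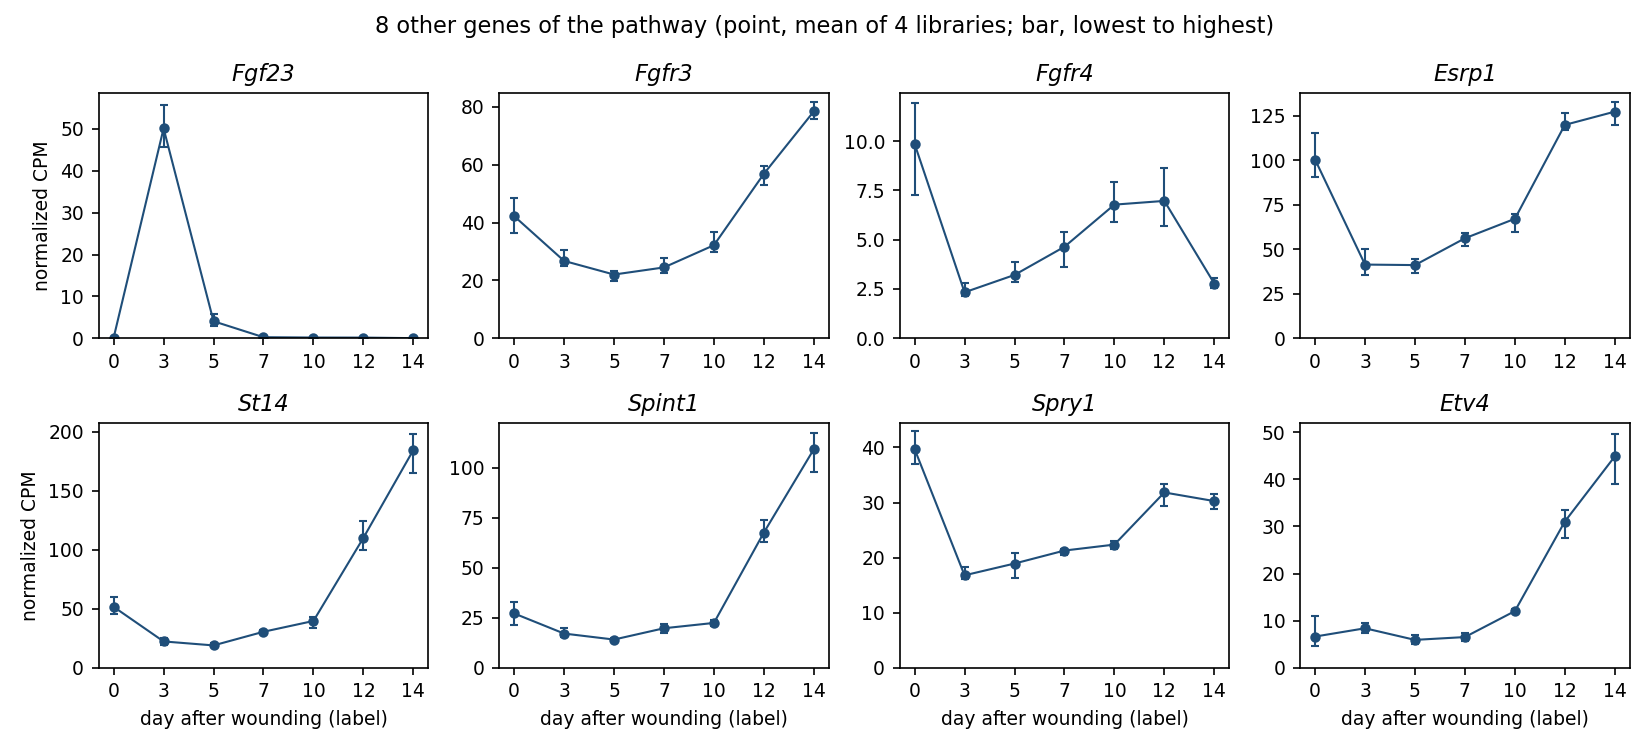
Mean normalized CPM of 8 other pathway genes (vertical axes, from 0) by labelled day (horizontal axes), with bars from the lowest to the highest of 4 libraries. Fgf23 stands out on Day3 at 50.1 CPM, Fgfr3, St14, Spint1 and Etv4 are highest on Day14, and Esrp1 and Spry1 are low on Day3 at 41.4 and 16.8 CPM.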

How the data were processed

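RNA of skin was sequenced at 7 labelled days with 4 libraries each. The authors deposited raw read counts per gene and FPKM values in a table each, with libraries prepared by TRIzol extraction and the VAHTS Universal V6 kit. The processing notes name fastp, R 3.2.0 and the mm10 build, and the aligner, counter, annotation and strand setting are not given in the sources used here. All deposited columns matched labelled samples. The FPKM columns served for levels per length and for limma alternatives.

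Counts were tested with edgeR 4.0.16 in R 4.3.3 (TMM factors, filterByExpr, quasi-likelihood fit of all 28 libraries with the day as group, 21 residual degrees of freedom), and calls used a Benjamini-Hochberg adjusted p under 0.05 over 18107 genes. CPM were scaled by TMM, and log2 CPM had a prior count of 2. Log2 ratios of gene pairs were compared by exact two-sided permutation tests over the 70 arrangements of 4 against 4 libraries. Alternatives used DESeq2 1.42.0, limma 3.58.1 on log2(FPKM + 1) or log2(FPKM + 0.1), other normalizations and filters, Xist as a covariate, the replicate number as a block and each library left out. The scripts were tested on simulated counts.

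The 10 genes, the pathway and marker lists and the tests were chosen with earlier results of these data known. The text names, for each list and comparison, up to 2 called genes with the largest rise and up to 2 with the largest fall, and the 3 genes with the highest Pearson r to each of the 10 among genes with a mean CPM of at least 1. Replicate numbers did not pair the libraries, since same-numbered libraries of different days had a median correlation of -0.001 in their deviations from the day means (84 pairs, against 0.001 for 252 others). Promoter windows and positions are from RefSeq (GRCm38.p6) and exon overlaps from GENCODE vM21.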

Additional observations from a re-analysis of the deposited data

Results flagged for a closer look

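In 5 of the 70 groups of 4 libraries examined (10 genes on 7 days), the highest or lowest library stood apart from the other 3 by more than the 95% critical value of Dixon's test, where chance alone flags about 1 in 20 groups, or 3.5 here. Fgf2 had a log2 CPM of 4.74 in Day3 library 3 where the others had 4.81 to 4.82, and 4.28 in Day5 library 4 where the others had 4.56 to 4.60. The fall of Fgf2 from Day3 to Day5 did not pass without that Day5 library (-0.213, adjusted p = 0.0742, edgeR). In Day14 library 4, Fgf5 had 2.97 (others 3.33 to 3.38) and Fgf10 had 3.56 (others 3.66). Fgfr2 had 5.22 in Day3 library 1 (others 4.93 to 4.96). The Fgf5, Fgf10 and Fgfr2 libraries named here still lay on the same side of every Day0 library as the rest of their day.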

How the results depend on the processing

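The 10 genes gave 110 fold changes. Of 880 values with 1 library left out, 813 kept direction and side of the threshold, 33 lost the call, 11 gained one and 23 changed sign. Of 1329 values under other settings, 1208 kept both, 41 lost the call, 36 gained one and 44 changed sign. Every change of sign was of a difference that had not passed. The count of genes called against Day0 stayed at 9 to 10 on Day3, 7 to 9 on Day5, 5 to 8 on Day7, 8 to 10 on Day10, 5 to 6 on Day12 and 6 to 9 on Day14 with 1 library left out. With the replicate number as a block it was 5 in place of 6 from Day3 to Day5, where Met was lost (-0.287), and no other call changed under the replicate block. The deposited depth of at least 36706513 counts limits Fgf5 on Day3 and Day5 and the rarest pathway genes.

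Xist served as a covariate although its day means were only 0.0119 to 0.0963 CPM, where Y-linked Ddx3y had 66.8 to 87.2 CPM, so that fit adjusts for no difference of sex. In the 8 libraries alone the calls of Fgf10 on Day5 and Day12 (-0.307 and 0.343), Fgf22 on Day5 (-0.932), Fgfr2 on Day10 (-0.233) and Hgf on Day14 (-0.254) were lost too. With limma (+ 1) those of Fgfr2 on Day10 (-0.173), Hgf on Day14 (-0.081) and Met from Day3 to Day5 (-0.239) and Day10 to Day12 (-0.191) were lost, and called values of low genes were smaller by construction (Hgf on Day3 1.025).

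With a log2 fold change over 1.5 and an unadjusted p under 0.05, 5, 2, 1, 1, 2 and 2 genes were called on the 6 wound days and 0, 1, 2, 2 and 0 between adjacent days, a limit that by construction leaves out smaller changes. The cause of the following changes of sign was not tested. From Day7 to Day10, Fgf10 was 0.004 with DESeq2 and with its size factors, 0.008 in the 8 libraries alone, 0.048 and 0.033 with limma (FPKM + 0.1 and + 1), 0.047 with no composition normalization, 0.022 with no filter and 0.041 with upper quartiles. Fgf2 was 0.035, 0.029, 0.037, 0.01 and 0.031 there with limma (+ 0.1, + 1), no composition normalization, no filter and upper quartiles, and from Day10 to Day12 0.062, 0.05 and 0.062 with the first 3 of these. With the same 3, Day12 against Day0 gave 0.03, 0.025 and 0.001 for Fgf7, 0.072, 0.07 and 0.073 for Fgfr1 and 0.075, 0.072 and 0.063 for Fgfr2, and Day14 gave 0.054, 0.052 and 0.041 for Fgfr2. From Day12 to Day14, Fgfr2 was 0.035 with DESeq2 and with its size factors, 0.029 with Xist as a covariate, 0.022 in 8 libraries, 0.028 above a mean CPM of 1, 0.026 with no filter and 0.038 with upper quartiles. Met on Day12 was -0.005 with Xist and -0.006 above a mean CPM of 1.

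References of 2 Day0 libraries were chosen after seeing the data. Libraries 2 and 3 gave 0.202 for Met on Day5 and 0.067 and 0.063 for Fgfr2 on Day12 and Day14. Libraries 1 and 4 gave 0.22 and 0.18 for Fgf7 on Day12 and Day7, and -0.185 and -0.147 for Met on the same days. With Day0 libraries 2 and 3, Met was 0.489 and 0.556 on Day3 and Day10 and Fgf7 was 0.281 on Day5, and with 1 and 4 Fgf7 was 0.914 there and Fgf10 0.535 on Day12, all called. Fgf22 on Day14 was 0.965 without Day0 library 1, and without Day0 library 4 Fgf2 was -0.186 and Met 0.4 on Day3. With 1 library left out, Met ran from -0.129 to 0.074 on Day5, -0.022 to 0.162 on Day7 and -0.074 to 0.125 on Day12. Fgfr2 ran from -0.124 to 0.057 on Day12, -0.1 to 0.114 on Day14 and -0.02 to 0.011 from Day12 to Day14. Fgf18 from Day3 to Day5 ran from -0.031 to 0.228, Fgf2 from -0.068 to 0.026 (Day7 to Day10) and -0.066 to 0.029 (Day10 to Day12), and Fgf10 from -0.047 to 0.05 (Day7 to Day10). On Day12 the log2 ratio of Fgfr1 to Fgfr2 ran from -0.128 to 0.052 and that of Fgf7 to Fgfr2 from -0.261 to 0.113.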
